A study of Mus musculus with 15 samples.

Results

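The RNA of 10 tumour necrosis factor (TNF) superfamily ligands was followed in mouse T helper 2 (Th2) cells. The ligands were Tnf, Lta, Ltb, Tnfsf4, Tnfsf8, Tnfsf11, Tnfsf13b, Tnfsf14, Cd40lg and Fasl, chosen by name from the 56748 genes of the tables. The choice was made with earlier results of these data known. All 10 were among the 15619 genes that passed the filter on low counts. Total RNA was sequenced in 15 libraries of Th2 cells, which had been grown in culture from naive CD4+ T cells taken from the spleens of female mice. Stimulated cKO cells (n = 4) and stimulated control cells (n = 5) received coated anti-CD3ε and soluble anti-CD28 for 24 h, and non-stimulated cKO cells (n = 3) and non-stimulated control cells (n = 3) did not. The cKO genotype was VEC-Cre;Asb2fl/fl and the control genotype Asb2fl/fl, so both carried floxed Asb2, and ASB2 is the substrate-recognition part of a ubiquitin ligase. The VE-cadherin (VEC) promoter that drives Cre works in endothelial cells and in the precursors that give rise to blood, so Cre was not restricted to T cells. All 4 groups had been primed for 3 days on anti-CD3ε with interleukin 2, interleukin 4, anti-CD28 and anti-IFNγ. They were then kept in interleukin 2 and interleukin 4 for 3 days, and the stimulation was on day 5. The ages of the mice are not given in the sources used here.

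TNF superfamily ligands are mostly made as trimeric proteins of the cell surface, and several are cut from it by metalloproteases. They bind receptors that recruit TRAF adaptors or death-domain adaptors and can switch on NF-kappaB, MAP kinases or caspases. On helper T cells they carry contact signals: CD40 ligand acts on B cells and antigen-presenting cells, OX40 ligand and CD30 ligand act on other lymphocytes, RANK ligand acts on dendritic cells and osteoclast precursors, and Fas ligand starts death of cells that carry Fas. T cell receptor signals reach many of these genes through NFAT, AP-1 and NF-kappaB.

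Ltb, Tnf and Lta are neighbours on chromosome 17 in the RefSeq annotation of GRCm38.p6, in that order. No other protein-coding gene lies between them. RefSeq promoter windows, which run from 250 bases before to 50 bases after an annotated start, were held for 8 of the 10 ligands. The windows of these neighbours are shown because Ltb moved in the opposite direction to Tnf and Lta after stimulation, and 1 of the 2 overlapping windows of Tnfsf13b because it was the other ligand that fell. The window of Tnfsf14, which rose, is shown beside them because it holds matches to 2 of the motifs. Each is written 5′ to 3′ on the gene's own strand, and capitals mark a match on either strand to 1 of 4 motifs. These were the AP-1 motif TGANTCA, the NFAT core TGGAAA, the TATA box TATAAA and the NF-kappaB consensus.
Tnf, chr17:35201958-35202257, minus strand: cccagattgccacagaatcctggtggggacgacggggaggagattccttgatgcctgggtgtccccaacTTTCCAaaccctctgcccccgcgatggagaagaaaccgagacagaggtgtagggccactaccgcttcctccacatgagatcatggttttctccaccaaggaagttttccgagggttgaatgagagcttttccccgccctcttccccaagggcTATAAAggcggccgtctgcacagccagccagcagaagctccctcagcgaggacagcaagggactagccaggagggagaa
Lta, chr17:35205302-35205601, minus strand: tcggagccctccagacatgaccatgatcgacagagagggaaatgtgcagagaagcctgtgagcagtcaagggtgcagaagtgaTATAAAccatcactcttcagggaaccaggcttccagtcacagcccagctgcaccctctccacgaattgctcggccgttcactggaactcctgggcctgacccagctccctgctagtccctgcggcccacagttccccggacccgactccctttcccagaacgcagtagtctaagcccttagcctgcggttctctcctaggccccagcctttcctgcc
Ltb, chr17:35194257-35194556, plus strand: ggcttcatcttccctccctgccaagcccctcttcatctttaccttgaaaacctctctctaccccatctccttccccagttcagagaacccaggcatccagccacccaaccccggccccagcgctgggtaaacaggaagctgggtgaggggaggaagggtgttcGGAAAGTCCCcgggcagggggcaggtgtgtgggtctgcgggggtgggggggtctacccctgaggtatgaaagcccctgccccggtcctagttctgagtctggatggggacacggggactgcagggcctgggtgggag
Tnfsf13b, chr8:10006383-10006682, plus strand: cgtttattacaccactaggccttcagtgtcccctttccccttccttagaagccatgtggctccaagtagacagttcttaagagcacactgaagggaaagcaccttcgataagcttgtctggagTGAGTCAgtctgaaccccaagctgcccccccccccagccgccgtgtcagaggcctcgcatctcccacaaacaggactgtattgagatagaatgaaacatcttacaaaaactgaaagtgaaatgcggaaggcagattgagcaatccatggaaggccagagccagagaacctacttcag
Tnfsf14, chr17:57194132-57194431, minus strand: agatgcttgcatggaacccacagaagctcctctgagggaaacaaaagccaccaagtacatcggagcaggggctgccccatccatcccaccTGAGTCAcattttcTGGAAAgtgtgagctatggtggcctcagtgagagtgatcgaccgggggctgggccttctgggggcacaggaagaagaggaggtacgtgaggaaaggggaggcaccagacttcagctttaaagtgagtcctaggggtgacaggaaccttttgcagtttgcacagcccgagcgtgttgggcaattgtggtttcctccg
The Tnf window holds the NFAT core on the opposite strand 181 to 176 bases before the start and a TATA box 29 to 24 bases before it. The Lta window holds a TATA box 167 to 162 bases before the start. The Ltb window holds the NF-kappaB consensus on the opposite strand 87 to 78 bases before the start. The Tnfsf13b window shown holds the AP-1 motif 127 to 121 bases before its start. The Tnfsf14 window holds the AP-1 motif 160 to 154 bases and the NFAT core 146 to 141 bases before its start. Of the windows not shown, that of Tnfsf11 holds a TATA box on the opposite strand, and those of Tnfsf8 and Fasl hold none of these letters. Among all 32851 windows of the table, the AP-1 motif was present in 7.81%, the NFAT core in 21.4%, the TATA box in 13.6% and the NF-kappaB consensus in 8.46%. These matches describe letters and do not show that a factor was bound.

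Estimated counts totalled 17.1 to 24.2 M per library. Summed markers of CD4 T cells were at 2761 to 3651 CPM in every library, where CPM is the estimated count scaled to an equal library size, corrected with edgeR's TMM factors. The deleted gene, Asb2 (ENSMUSG00000021200), was at 9.36 to 9.59 CPM in stimulated cKO libraries and 31.2 to 38.0 CPM in stimulated control libraries. Without stimulation Asb2 was at 12.7 to 22.7 CPM in cKO libraries and 25.6 to 49.7 CPM in control libraries. It was therefore lower in every cKO library than in every control library of the same condition, and not absent. Mitochondrially encoded RNA made up 9.43% of counts in stimulated cKO replicate 3, the highest of the 15 libraries.

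Stimulation changed the RNA of all 10 ligands in both genotypes, and 8 were higher and 2 lower. Tnf, Lta, Tnfsf4, Tnfsf8, Tnfsf11, Tnfsf14, Cd40lg and Fasl rose, and Ltb and Tnfsf13b fell. A gene was called when its adjusted p in edgeR's quasi-likelihood test (Benjamini-Hochberg over all genes tested) was under 0.05. Stimulation moved much of the transcriptome. In cKO cells 26.7% of genes were called higher and 27.1% lower, and in control cells 25.4% were called higher and 25.2% lower. The median log2 fold change of the 10 ligands was 1.95 in cKO cells and 2.03 in control cells. That of all genes tested was -0.0087 in cKO cells and 0.0023 in control cells. Because the list was chosen with earlier results of these data known, these medians describe it and are not a test. In cKO cells the stimulated and non-stimulated libraries did not overlap for any of the 10 ligands, against 54.1% of all genes without overlap. In control cells they overlapped for Tnfsf4 and Fasl and not for the other 8, against 47.9% of all genes without overlap.

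**Figure D1:**
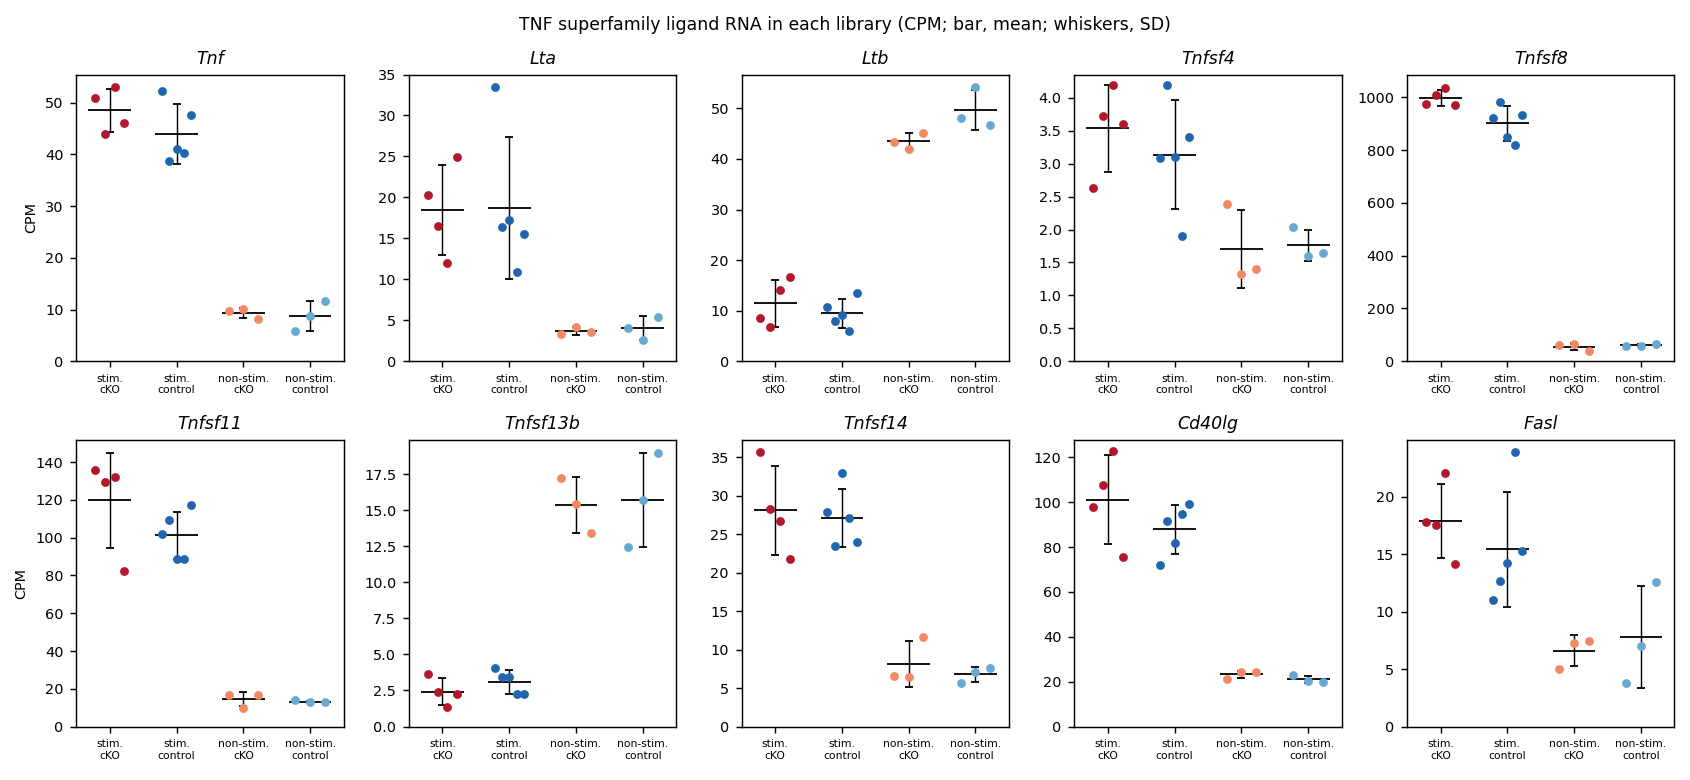
RNA of the 10 ligands in each of the 15 libraries, in CPM, with 1 panel per gene and its own axis from 0. Points are libraries, bars are group means and whiskers are SD. Stimulated libraries lie above non-stimulated ones in 8 panels and below them in the panels of Ltb and Tnfsf13b, with overlap in control cells for Tnfsf4 and Fasl.

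Tnfsf8 (ENSMUSG00000028362), which encodes CD30 ligand, had the largest rise of the 10 in both genotypes. In cKO cells it was at 974, 1009, 1036 and 971 CPM in the stimulated libraries, against 61.3, 63.7 and 38.9 CPM in the non-stimulated ones. Control cells had 921, 982, 848, 821 and 934 CPM with stimulation and 58.7, 58.6 and 66.4 CPM without it. The 9 stimulated libraries were close to each other and far above the 6 non-stimulated ones, among which non-stimulated cKO replicate 3 was low. The fold was 18.3 in cKO cells, a log2 fold change of 4.19 ± 0.15 (SE; edgeR's quasi-likelihood test, Benjamini-Hochberg adjusted p = 4.1e-12). In control cells it was 14.7, or 3.88 ± 0.15 on the log2 scale (edgeR, Benjamini-Hochberg adjusted p = 5.3e-12).

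Cd40lg (ENSMUSG00000031132) encodes CD40 ligand, the contact signal that helper T cells give to B cells. Its levels in cKO cells were 98.1, 108, 123 and 75.4 CPM with stimulation, against 21.3, 24.2 and 24.3 CPM without. Control libraries held 72.2, 91.5, 81.9, 94.6 and 99.4 CPM with stimulation, against 22.9, 20.4 and 19.9 CPM without it. The stimulated values spread more widely than the non-stimulated ones, with no overlap between them. The log2 fold changes were 2.12 ± 0.15 in cKO cells (edgeR, Benjamini-Hochberg adjusted p = 4.2e-09) and 2.06 ± 0.14 in control cells (adjusted p = 4.0e-09).

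Tnfsf4 (ENSMUSG00000026700), which encodes OX40 ligand, was scarce, with 25 to 91 estimated counts per library. Stimulated cKO libraries had 2.63, 3.73, 4.19 and 3.60 CPM, against 2.39, 1.32 and 1.41 CPM in non-stimulated ones. The stimulated control libraries had 3.09, 4.20, 3.10, 1.90 and 3.41 CPM, against 2.03, 1.60 and 1.64 CPM in the non-stimulated ones. Stimulated control replicate 4 lay among the non-stimulated control libraries, so those groups overlapped. The rise was 1.05 ± 0.27 on the log2 scale in cKO cells (edgeR, Benjamini-Hochberg adjusted p = 0.0036) and 0.84 ± 0.26 in control cells (adjusted p = 0.013). Without non-stimulated control replicate 2 the Tnfsf4 rise in control cells was 0.78 and was not called (edgeR, Benjamini-Hochberg adjusted p = 0.0528).

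Tnf (ENSMUSG00000024401) encodes the founding cytokine of the family, and Lta (ENSMUSG00000024402) encodes lymphotoxin alpha, which is secreted alone or held at the membrane with lymphotoxin beta. Tnf was at 50.9, 43.9, 53.1 and 46.1 CPM in stimulated cKO libraries, against 9.72, 10.0 and 8.17 CPM in non-stimulated cKO libraries. In control cells Tnf was at 52.3, 38.7, 41.0, 40.3 and 47.6 CPM with stimulation and at 5.94, 8.68 and 11.6 CPM without. Tnf in every stimulated library was far above every non-stimulated one. The log2 fold change of Tnf was 2.38 ± 0.17 in cKO cells (edgeR, Benjamini-Hochberg adjusted p = 8.8e-09) and 2.32 ± 0.17 in control cells (adjusted p = 7.9e-09). Lta was at 20.3, 16.5, 12.0 and 24.9 CPM in stimulated cKO cells, against 3.31, 4.22 and 3.63 CPM in non-stimulated cKO cells. Stimulated control libraries had 33.5, 16.4, 17.3, 10.9 and 15.5 CPM of Lta, against 4.07, 2.58 and 5.45 CPM in non-stimulated ones. Lta also did not overlap between conditions, but its stimulated libraries varied among themselves, with control replicate 1 the highest. Its log2 fold change was 2.31 ± 0.38 in cKO cells (edgeR, Benjamini-Hochberg adjusted p = 1.6e-04) and 2.20 ± 0.37 in control cells (adjusted p = 1.8e-04). Without stimulated control replicate 1 the Lta rise in control cells was 1.90.

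That library also had the highest summed markers of B cells, a cell type that makes lymphotoxin alpha, at 12.2 CPM for the 7 markers. The B cell sum was 4.80 to 8.17 CPM in stimulated cKO libraries and 5.41 to 7.92 CPM in the other 4 stimulated control libraries. It was 4.17 to 6.97 CPM in non-stimulated cKO libraries and 2.07 to 4.93 CPM in non-stimulated control libraries. None of the 7 markers was at 0 in all libraries. Of the 6 markers tested, 1 was called higher after stimulation in each genotype and 5 were not called. Their log2 fold changes ran from -2.32 to 3.11 in cKO cells, with 5 negative, and from -0.46 to 3.74 in control cells, with 2 negative. The sum therefore mixes markers that moved in different directions. The part of B cell RNA in the Lta values was not tested.

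Ltb (ENSMUSG00000024399), the neighbour of Tnf and Lta, encodes lymphotoxin beta, which anchors lymphotoxin alpha to the membrane for the lymphotoxin beta receptor, and it fell. Stimulated cKO libraries had 8.46, 6.81, 14.1 and 16.7 CPM of Ltb, against 43.3, 42.0 and 45.2 CPM in non-stimulated cKO libraries. Stimulated control libraries had 10.7, 8.0, 9.15, 5.97 and 13.6 CPM, against 48.1, 54.3 and 46.7 CPM in non-stimulated control libraries. All 9 stimulated libraries were low, and none came near a non-stimulated one. Ltb fell by 1.93 ± 0.27 on the log2 scale in cKO cells (edgeR, Benjamini-Hochberg adjusted p = 3.6e-05) and by 2.39 ± 0.26 in control cells (adjusted p = 2.7e-06). Across this stretch of chromosome 17, Tnf and Lta were thus higher, and Ltb lower, in every stimulated library than in every non-stimulated library. The annotated microRNA genes that overlap Ltb and Lta on the same strand had 0 counts in every library.

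Tnfsf13b (ENSMUSG00000031497), the other ligand that fell, encodes BAFF, a survival factor for B cells made mainly by myeloid and stromal cells. It was at 3.65, 2.38, 1.38 and 2.26 CPM in stimulated cKO libraries, against 17.3, 15.4 and 13.4 CPM in non-stimulated ones. In control cells it was at 4.04, 3.44, 3.45, 2.23 and 2.25 CPM with stimulation and at 12.4, 15.7 and 19.0 CPM without it. Tnfsf13b was low in all stimulated libraries and did not overlap between conditions. The drop was -2.65 ± 0.25 on the log2 scale in cKO cells (edgeR, Benjamini-Hochberg adjusted p = 1.6e-07) and -2.34 ± 0.23 in control cells (adjusted p = 2.2e-07). Because these are bulk libraries, fewer cells of a type and less RNA per cell cannot be told apart. The summed markers of macrophages and monocytes moved the same way, with 3.55 to 6.51 CPM in stimulated cKO libraries and 14.7 to 20.5 CPM in non-stimulated cKO libraries. In control cells that sum was 2.98 to 5.80 CPM with stimulation and 13.4 to 23.4 CPM without. Of the 11 markers, C1qa, C1qb, C1qc and Lyz2 were at 0 in every library, 8 never exceeded 10 counts, and Adgre1 made up much of the non-stimulated sum, at 7.26 to 17.2 CPM. The 6 stromal markers summed to 1.08 to 1.38 CPM in stimulated and 5.55 to 9.71 CPM in non-stimulated cKO libraries, and to 1.54 to 2.20 CPM in stimulated and 5.45 to 7.24 CPM in non-stimulated control libraries. Col3a1 was at 0 in every library and 4 of the 6 never exceeded 10 counts. The sum of the 7 neutrophil markers also moved the same way, at 0.902 to 1.02 CPM in stimulated and 5.53 to 11.0 CPM in non-stimulated cKO libraries. In control cells they summed to 0.798 to 1.32 CPM with stimulation and 6.58 to 12.0 CPM without, with S100a8 and S100a9 at 0 in every library and 5 of the 7 never above 10 counts. The sum of the 8 dendritic cell markers moved the other way, at 55.7 to 73.7 CPM in stimulated and 44.4 to 50.7 CPM in non-stimulated cKO libraries. In control cells the dendritic cell sum was 53.7 to 71.6 CPM with stimulation and 46.5 to 47.8 CPM without. Clec9a and Siglech of that list were at 0 in every library. Of the 5 dendritic cell markers tested, 3 were called higher and 1 lower in cKO cells, and 3 higher and 2 lower in control cells. Their log2 fold changes ran from -2.61 to 2.98 in cKO and from -2.82 to 3.18 in control cells. That sum therefore also mixes markers that moved in different directions. Sums of other lists fell too, in both genotypes. In control cells the endothelial sum was 44.4 to 77.2 CPM with stimulation and 172 to 191 CPM without. The mast cell and basophil sum was 0.173 to 0.550 CPM with it and 3.43 to 7.24 CPM without. In each of these lists 1 marker was tested. The sums of CD8 T cells, B cells, and red cells and platelets overlapped or were higher with stimulation. The part of any of these cell types in the Tnfsf13b values was not tested.

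Tnfsf11 (ENSMUSG00000022015) encodes RANK ligand, known for driving osteoclast formation and for prolonging dendritic cell survival. It was at 136, 129.7, 132 and 82.4 CPM in stimulated cKO libraries, against 16.6, 10.0 and 17.0 CPM in non-stimulated cKO libraries. Control libraries had 102, 109, 88.8, 88.8 and 117 CPM with stimulation, against 13.8, 13.1 and 12.9 CPM without. Stimulated cKO replicate 4 was low beside the other 3 of its group, yet far above every non-stimulated library. The fold was 8.23 in cKO cells (log2 fold change 3.04 ± 0.20; edgeR, Benjamini-Hochberg adjusted p = 5.5e-09) and 7.63 in control cells (2.93 ± 0.20; adjusted p = 6.1e-09). Leaving out stimulated cKO replicate 4 gave a Tnfsf11 log2 fold change of 3.20 in cKO cells.

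Tnfsf14 (ENSMUSG00000005824) encodes LIGHT, which binds the herpesvirus entry mediator and the lymphotoxin beta receptor. Its levels were 35.7, 28.2, 26.7 and 21.7 CPM in stimulated cKO cells, against 6.52, 6.39 and 11.6 CPM in non-stimulated cKO cells. Control cells had 27.8, 23.4, 33.0, 27.2 and 24.0 CPM with stimulation, against 5.67, 7.08 and 7.61 CPM without. The conditions did not overlap, although non-stimulated cKO replicate 3 was high for its group. Tnfsf14 rose by 1.78 ± 0.21 on the log2 scale in cKO cells (edgeR, Benjamini-Hochberg adjusted p = 2.7e-06) and by 1.99 ± 0.21 in control cells (adjusted p = 6.8e-07).

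Fasl (ENSMUSG00000000817) encodes Fas ligand, the death signal of cytotoxic and activated T cells. Stimulated cKO libraries held 17.8, 17.5, 22.1 and 14.1 CPM of Fasl, against 5.04, 7.23 and 7.49 CPM in non-stimulated cKO libraries. Among control libraries the values were 11.0, 12.7, 14.3, 23.9 and 15.3 CPM with stimulation and 3.80, 6.98 and 12.6 CPM without. The cKO groups were apart, and the control groups overlapped because non-stimulated control replicate 3 was as high as some stimulated libraries. The log2 fold change was 1.44 ± 0.34 in cKO cells (edgeR, Benjamini-Hochberg adjusted p = 0.0028) and 0.97 ± 0.33 in control cells (adjusted p = 0.022). Without non-stimulated control replicate 1 the Fasl rise in control cells was 0.65 (edgeR, Benjamini-Hochberg adjusted p = 0.0826), and without non-stimulated control replicate 2 it was 0.90 (adjusted p = 0.0818), so neither was called, and the call was also lost under 5 changes of filter, scale or libraries fitted. Without non-stimulated control replicate 3 it was 1.52 (edgeR, Benjamini-Hochberg adjusted p = 9.7e-04).

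CD8 T cells and natural killer (NK) cells also make Fas ligand, and both marker sums were highest in the same library of each group. These libraries were stimulated control replicate 4 and replicate 3 of each other group, cKO groups included. Each also had the highest Fasl of its group. The summed CPM of Cd8a and Cd8b1 was 28.8 in stimulated control replicate 4 and 8.25 to 22.6 in the other 4 stimulated control libraries. It was 27.8 in non-stimulated control replicate 3 and 7.39 and 9.96 in the other 2 non-stimulated control libraries. The cKO libraries held 5.83 to 19.3 CPM with stimulation and 10.6 to 18.4 CPM without. For the 7 NK markers the sum was 28.8 CPM in stimulated control replicate 4, against 130.4 CPM in non-stimulated control replicate 3. Over whole groups the NK sum was 10.7 to 24.4 CPM in stimulated cKO libraries, 11.4 to 28.8 CPM in stimulated control libraries, 33.8 to 72.6 CPM in non-stimulated cKO libraries and 42.2 to 130.4 CPM in non-stimulated control libraries. Eomes, which activated T cells can also express, made up 99.2 of the 130.4 CPM in non-stimulated control replicate 3. Neither marker list had a gene at 0 in all libraries, and 3 of the 7 NK markers never exceeded 10 counts. With stimulated control replicate 4 and non-stimulated control replicate 3 left out, the Fasl log2 fold change in control cells was 1.30 (edgeR, Benjamini-Hochberg adjusted p = 4.3e-04). That choice was made after seeing the data. The part of these cells in the Fasl values was not tested.

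**Figure D2:**
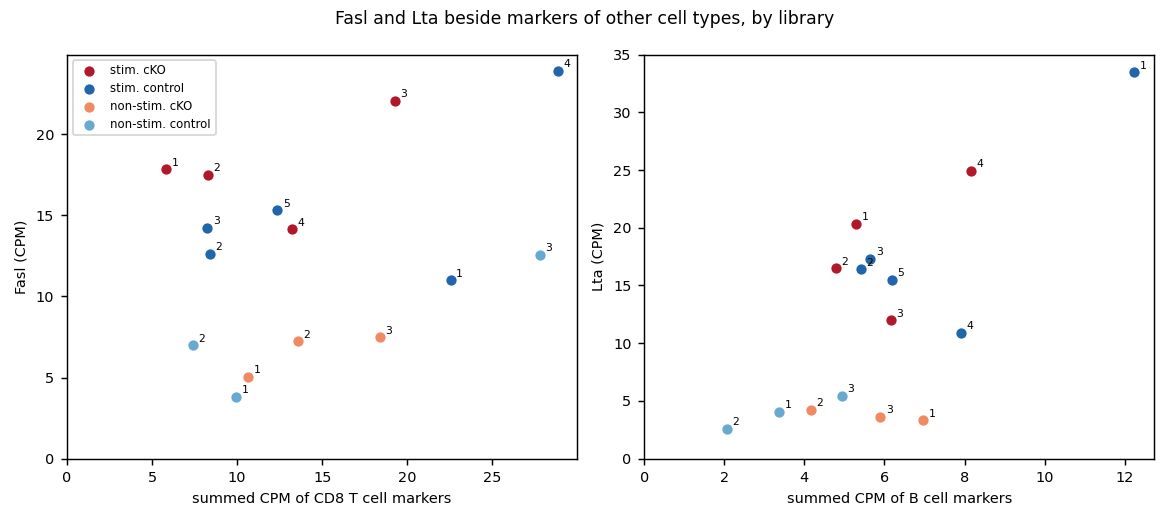
Fasl against the summed CPM of the CD8 T cell markers Cd8a and Cd8b1 (left), and Lta against the summed CPM of 7 B cell markers (right). Points are the 15 libraries, coloured by group and numbered by replicate. Stimulated control replicate 4 has the highest Fasl (23.9 CPM) and CD8 sum (28.8 CPM), and stimulated control replicate 1 the highest Lta (33.5 CPM) and B cell sum (12.2 CPM).

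**Figure D3:**
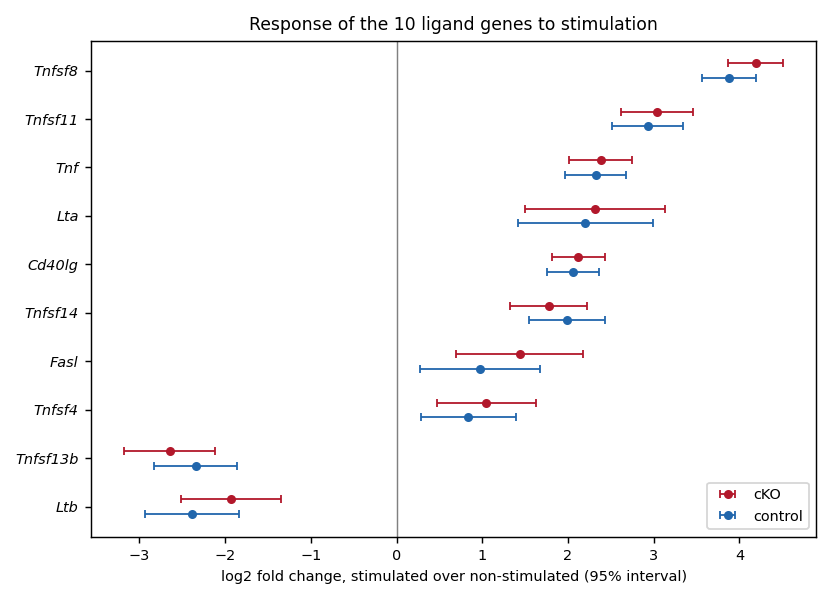
Log2 fold change, stimulated over non-stimulated, of each ligand in cKO (upper points) and control cells (lower points), with 95% intervals from edgeR's quasi-likelihood model. Tnfsf8 stands at 4.19 in cKO and 3.88 in control cells, and only Tnfsf13b and Ltb lie below 0.

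Per unit of transcript length, the ligands differed widely in level, and their order changed with stimulation. In the authors' TPM, which is scaled within each library, the 10 ligands summed to 505 ± 78.8 in stimulated cKO cells and 122 ± 0.754 in non-stimulated cKO cells (SD). The sum was 475 ± 55.4 TPM in stimulated control cells and 115 ± 8.64 TPM in non-stimulated control cells. Stimulated libraries ranged from 393 to 592 TPM and non-stimulated ones from 106 to 123 TPM, so the sums did not overlap. The abundant non-coding RNA Rn7s2 took 7.97% to 16.5% of the TPM of a library, which moves every other TPM value.

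After stimulation the order by mean TPM was the same in both genotypes at its top: Tnfsf8, then Cd40lg, Tnfsf11 and Tnf. Tnfsf8 was at 263 ± 48.9 TPM in stimulated cKO and 247 ± 26.2 TPM in stimulated control cells. Cd40lg followed at 93.1 ± 16.0 TPM in stimulated cKO and 86.6 ± 17.3 TPM in stimulated control cells. Each of these 4 ligands was above the next without overlap between libraries. Tnfsf14, Lta, Fasl and Ltb came after them, and each neighbouring pair in that order overlapped. Tnfsf4 and Tnfsf13b were the lowest, and they overlapped each other. Without stimulation Ltb was the highest, at 46.7 ± 1.88 TPM in cKO and 47.8 ± 5.81 TPM in control cells, and Tnfsf4 the lowest, at 1.06 ± 0.374 TPM in cKO and 0.977 ± 0.126 TPM in control cells.

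The makeup of the summed ligand RNA therefore differed between conditions. Tnfsf8 made up 51.9 ± 2.68% of the summed TPM in stimulated cKO cells and 12.4 ± 3.18% in non-stimulated cKO cells. Its share was 52.2 ± 1.73% in stimulated control cells and 13.2 ± 0.741% in non-stimulated control cells. Ltb moved the other way, at 2.34 ± 1.05% in stimulated cKO and 38.4 ± 1.32% in non-stimulated cKO cells. In control cells Ltb made up 2.11 ± 0.544% with stimulation and 41.5 ± 3.78% without. Cd40lg held similar shares in all groups, with 18.5 ± 2.35% in stimulated cKO, 18.2 ± 2.22% in stimulated control, 18.9 ± 1.28% in non-stimulated cKO and 16.3 ± 2.31% in non-stimulated control cells. These shares are descriptions and were not tested.

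The comparison of cKO with control cells asked whether loss of ASB2 changed these RNAs. No ligand was called different between genotypes in stimulated cells, in non-stimulated cells or in the interaction, which sets the cKO response to stimulation against the control response. None of the 10 had an unadjusted p under 0.05 in any of the 3 comparisons when all 15 libraries were fitted with 1 mean per group and no block. DESeq2 called none of them. With libraries left out or a block added, 5 ligands had an unadjusted p under 0.05, though none was called after adjustment in any setting. In stimulated cells without stimulated cKO replicate 4, Cd40lg was at a log2 fold change of 0.32 (unadjusted p = 0.0071, edgeR) and Tnfsf11 at 0.39 (unadjusted p = 0.0079, edgeR). With replicate numbers 1 to 3 only, Cd40lg was at 0.43 (unadjusted p = 0.0017, edgeR) and Tnfsf11 at 0.41 (unadjusted p = 0.011, edgeR). These numbers were also chosen after seeing the data. They drop stimulated cKO replicate 4, the lowest of its group in Cd40lg (75.4 CPM) and Tnfsf11 (82.4 CPM). Stimulated control replicates 4 and 5, the highest of their group in Cd40lg (94.6 and 99.4 CPM), are dropped too. In that setting 401 of 15530 genes had an unadjusted p under 0.05 (edgeR). Tnfsf13b was at -0.60 without stimulated cKO replicate 1 (unadjusted p = 0.023, edgeR). Fasl was at 0.43 without the 2 control libraries highest in CD8 markers (unadjusted p = 0.032, edgeR). That subset was chosen after seeing the data. It drops stimulated control replicate 4, the highest in Fasl of its group at 23.9 CPM, which raises the estimate. Stimulated cKO replicate 3, the highest in Fasl and CD8 markers of its group, was kept, so this p depends on the choice of libraries. The Fasl interaction was 0.74 with a block within genotype (unadjusted p = 0.038, edgeR). Among all genes, 0.00640% were called by edgeR in stimulated cells, which is Asb2 alone, and 0% in non-stimulated cells and in the interaction. At an unadjusted p under 0.05 the share of all genes was 1.81% in stimulated cells, 2.57% in non-stimulated cells and 3.87% in the interaction. These shares stand for 283, 402 and 605 genes. Single libraries moved them: 523 genes in stimulated cells without stimulated cKO replicate 4 and 525 without replicate 2, 1085 in non-stimulated cells without non-stimulated control replicate 2 and 739 without non-stimulated cKO replicate 2. The interaction had 1130 such genes without non-stimulated control replicate 2 and 403 without replicate 3. DESeq2 called 5 genes in stimulated cells, 4 in non-stimulated cells and 2 in the interaction.

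In stimulated cells the 95% intervals bounded the difference more tightly for Tnfsf8, Cd40lg, Tnfsf11 and Tnf than for the other ligands. Among the others, width did not follow level, since the intervals of Lta and Fasl were wider than those of the scarcer Tnfsf4 and Tnfsf13b. Tnfsf8 differed by a log2 fold change of 0.15 ± 0.11 between cKO and control cells, with an interval of -0.09 to 0.38. Cd40lg had the smallest p of the 10, 0.109 in edgeR's quasi-likelihood test before adjustment, at 0.20 ± 0.12 and an interval of -0.05 to 0.45. Tnfsf11 was 0.25 ± 0.15 (interval -0.08 to 0.57) and Tnf 0.14 ± 0.14 (interval -0.15 to 0.43). For these 4 abundant ligands the stimulated cKO and control libraries overlapped, and a difference beyond 0.57 on the log2 scale lies outside every interval. Tnfsf13b at -0.34 ± 0.24 (interval -0.85 to 0.17), Ltb at 0.27 ± 0.25 (interval -0.27 to 0.81) and Fasl at 0.21 ± 0.28 (interval -0.39 to 0.82) were less well bounded. Lta, at -0.02 ± 0.29, had an interval of -0.65 to 0.61, Tnfsf4 was at 0.17 ± 0.23 (interval -0.31 to 0.65) and Tnfsf14 at 0.05 ± 0.17 (interval -0.31 to 0.41).

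In non-stimulated cells the estimates of cKO against control ran from -0.25 ± 0.37 for Fasl to 0.27 ± 0.23 for Tnfsf14 on the log2 scale. Their intervals were -1.04 to 0.53 for Fasl and -0.21 to 0.75 for Tnfsf14. Ltb was the only ligand whose genotypes did not overlap, with 43.3, 42.0 and 45.2 CPM in non-stimulated cKO libraries and 48.1, 54.3 and 46.7 CPM in non-stimulated control libraries. All 3 cKO libraries were lower, at a log2 fold change of -0.19 ± 0.28 (interval -0.79 to 0.41), and 3.49% of all genes were lower without overlap in that comparison. The Fasl estimate was 0.29 without non-stimulated control replicate 3, the library with the highest Fasl of its group.

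For the interaction, Tnfsf8 had the smallest p, 0.0977 in edgeR's quasi-likelihood test before adjustment, at 0.31 ± 0.18 on the log2 scale (interval -0.06 to 0.69). Its rise after stimulation was 4.19 in cKO and 3.88 in control cells. Single libraries moved the Tnfsf8 interaction, to 0.12 without non-stimulated cKO replicate 3, 0.44 without replicate 2 (unadjusted p = 0.028, edgeR) and 0.41 without replicate 1 (unadjusted p = 0.049, edgeR). Ltb differed by 0.46 ± 0.38 (interval -0.35 to 1.27) and Fasl by 0.47 ± 0.46 (interval -0.53 to 1.46). Lta, with the largest SE of the 10, had an interval of -0.98 to 1.20. The adjusted p of all 10 ligands in all 3 genotype comparisons lay between 0.997 and 1 (edgeR, Benjamini-Hochberg).

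**Figure D4:**
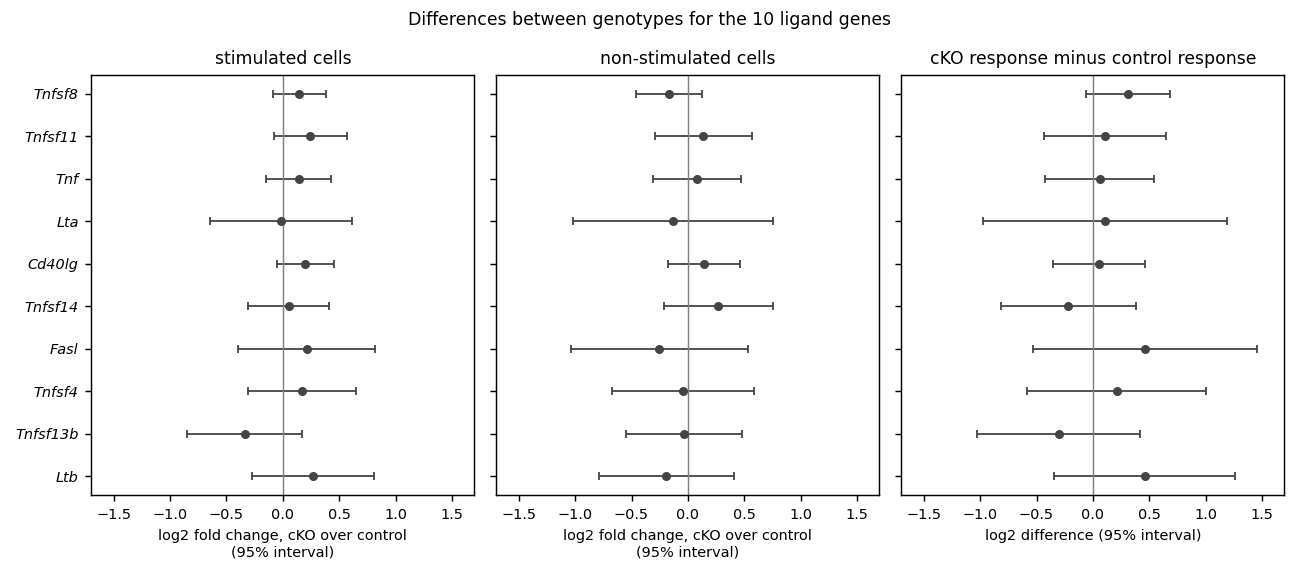
Log2 difference between cKO and control cells for each ligand in stimulated cells (left), in non-stimulated cells (middle) and in the response to stimulation (right), with 95% intervals from edgeR's quasi-likelihood model. Every interval includes 0, and those of Lta and Fasl are among the widest.

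Receptors for these ligands were measured in the same cells, and 11 of the 13 listed passed the filter. Tnfrsf17, which encodes the BAFF receptor BCMA, had 0 counts in every library, Cd40 had at most 14, and neither was tested. In cKO cells 2 receptors were called higher, 3 lower and 6 not called, and in control cells 1 was higher, 4 lower and 6 not called. Among all genes tested, 26.7% were called higher and 27.1% lower in cKO cells, and 25.4% higher and 25.2% lower in control cells. The median log2 fold change of the 11 was -0.14 in cKO and 0.02 in control cells. Only Tnfrsf4 was called higher in both genotypes, and Tnfrsf1b, Tnfrsf8 and Tnfrsf11a were called lower in both.

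Tnfrsf4, which encodes OX40, the receptor of OX40 ligand, had 731, 543, 613 and 468 CPM in stimulated cKO libraries, against 105, 237 and 166 CPM in non-stimulated cKO libraries. Control cells had 502, 557, 595, 532 and 500.0 CPM with stimulation, against 154, 162 and 278 CPM without. Every stimulated library was higher than every non-stimulated one. The log2 fold change of Tnfrsf4 was 1.80 ± 0.26 in cKO cells (edgeR, Benjamini-Hochberg adjusted p = 5.6e-05) and 1.44 ± 0.25 in control cells (adjusted p = 2.8e-04). By TPM this receptor was far above its ligand, at 721 ± 127 TPM in stimulated cKO and 696 ± 57.1 TPM in stimulated control cells, beside Tnfsf4 at 2.08 ± 0.526 TPM in stimulated cKO and 1.91 ± 0.483 TPM in stimulated control cells.

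Tnfrsf8, which encodes CD30, fell while its ligand Tnfsf8 rose. It was at 677, 619, 578 and 576 CPM in stimulated cKO libraries, against 1117, 1299 and 959 CPM in non-stimulated cKO libraries. The control libraries had 522, 639, 612, 659 and 553 CPM with stimulation, against 1183, 1132 and 1405 CPM without. Tnfrsf8 did not overlap between conditions, and its log2 fold change was -0.88 ± 0.12 in cKO cells (edgeR, Benjamini-Hochberg adjusted p = 6.5e-06) and -1.05 ± 0.11 in control cells (adjusted p = 4.1e-07). By TPM the receptor was at 350 ± 52.3 in non-stimulated cKO and 346 ± 28.5 in non-stimulated control cells, where Tnfsf8 was at 15.1 ± 3.79 TPM in non-stimulated cKO and 15.2 ± 0.735 TPM in non-stimulated control cells. In stimulated cells Tnfrsf8 was at 182 ± 37.1 TPM in cKO and 185 ± 27.3 TPM in control cells, below the level of Tnfsf8 in each group.

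Tnfrsf11a, which encodes RANK, the receptor of RANK ligand, was scarce and fell by 3.53 ± 0.58 on the log2 scale in cKO cells (edgeR, Benjamini-Hochberg adjusted p = 6.0e-05) and by 2.43 ± 0.52 in control cells (adjusted p = 7.8e-04). Its values were 0.243, 0.328, 0.0655 and 0 CPM in stimulated cKO libraries and 1.12, 1.48 and 3.54 CPM in non-stimulated cKO libraries. In control cells Tnfrsf11a was at 0.112 to 0.462 CPM with stimulation and 1.12 to 2.07 CPM without. The stimulated values rest on few reads. Tnfrsf1b, the TNF receptor typical of lymphocytes, was called lower at a log2 fold change of -0.97 ± 0.12 in cKO cells and -0.76 ± 0.11 in control cells (edgeR, Benjamini-Hochberg adjusted p = 2.6e-06 in cKO and 2.1e-05 in control cells). Tnfrsf1a, which carries a death domain, was not called, at -0.25 ± 0.16 in cKO and -0.36 ± 0.15 in control cells. Fas was called in cKO cells only, at 0.58 ± 0.22 (edgeR, Benjamini-Hochberg adjusted p = 0.035), against 0.53 ± 0.22 in control cells (adjusted p = 0.051). Tnfrsf13b, which encodes the BAFF receptor TACI, was called lower in control cells only, at -0.25 ± 0.10 (edgeR, Benjamini-Hochberg adjusted p = 0.039), against -0.15 ± 0.10 in cKO cells (adjusted p = 0.23). For both genes the difference between genotypes was not called, since no receptor was called in the interaction. Ltbr, Tnfrsf11b, Tnfrsf13c and Tnfrsf14 were not called in either genotype.

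**Figure D5:**
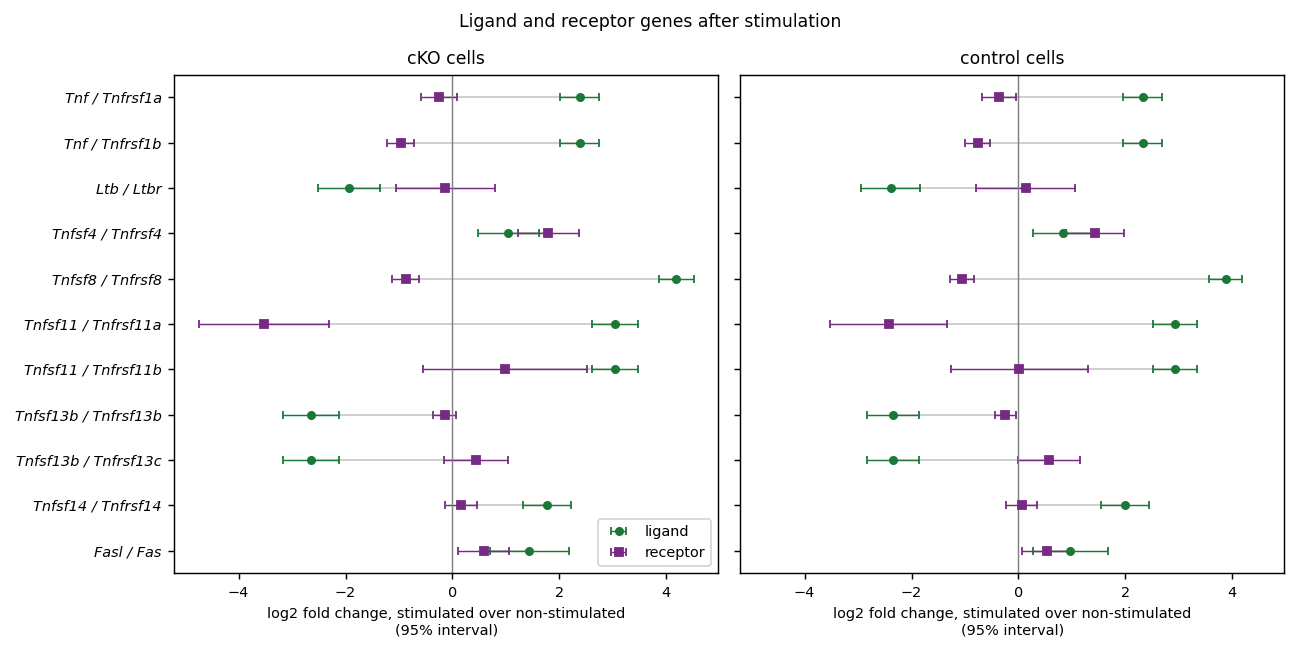
Log2 fold change, stimulated over non-stimulated, of each ligand (circles) and of a receptor it binds (squares) in cKO (left) and control cells (right), with 95% intervals from edgeR's quasi-likelihood model. Tnfsf4 and Tnfrsf4 lie on the same side of 0, whereas Tnfsf8 and Tnfrsf8, and Tnfsf11 and Tnfrsf11a, lie on opposite sides.

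Genes that act below or beside these ligands were counted in lists of known members. Of 13 adaptors and signal proteins of TNF receptors, 6 were called higher and 3 lower in cKO cells, and 6 higher and 4 lower in control cells. For this and the lists below, the shares of all genes tested were 26.7% called higher and 27.1% lower in cKO cells. In control cells those shares were 25.4% higher and 25.2% lower. Traf1, an adaptor induced by NF-kappaB, rose by 1.78 ± 0.14 on the log2 scale in cKO and 1.77 ± 0.13 in control cells. Cflar, an inhibitor of caspase 8 at death receptors, rose by 1.56 ± 0.09 in cKO and 1.58 ± 0.09 in control cells. Birc3, a ubiquitin ligase bound to TRAFs, rose by 0.95 ± 0.14 in cKO and 0.82 ± 0.13 in control cells, and Traf6 by 0.84 ± 0.10 in cKO and 0.66 ± 0.10 in control cells. Other genes of the list moved down: Tradd, Ripk1 and Map3k14 had means of 6.05, 71.2 and 47.6 CPM in stimulated cKO cells. Their means were 10.1, 96.4 and 63.9 CPM in non-stimulated cKO cells. In control cells they were 6.19, 70.7 and 50.1 CPM with stimulation and 10.7, 98.5 and 63.0 CPM without. The medians of the 13 genes were 0.26 in cKO and 0.15 in control cells.

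Of 8 genes for NF-kappaB and NFAT factors, 5 were called higher and 2 lower in each genotype, with medians of 0.64 in cKO and 0.47 in control cells. Nfkb2 rose by 2.77 ± 0.23 on the log2 scale in cKO and 2.45 ± 0.22 in control cells, and Rel by 2.21 ± 0.17 in cKO and 2.05 ± 0.16 in control cells. Rela rose by 0.95 ± 0.14 in cKO and 0.68 ± 0.13 in control cells, whereas Nfatc2 fell, at -0.93 ± 0.11 in cKO and -0.79 ± 0.10 in control cells. Of 10 NF-kappaB target and feedback genes, 8 were called higher and 0 lower in cKO cells, and 8 higher and 1 lower in control cells, with medians of 1.81 in cKO and 1.65 in control cells. Among them, Nfkbia, Nfkbib, Nfkbiz and the deubiquitinase gene Tnfaip3 rose by 2.64, 2.14, 2.25 and 2.15 on the log2 scale in cKO cells. In control cells they rose by 2.47, 1.89, 2.20 and 1.97.

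Of 6 sheddase and cofactor genes, 4 were called higher in cKO cells and 3 in control cells, and 0 were lower in either. Adam17, the protease that releases TNF, rose by 0.28 ± 0.09 on the log2 scale in cKO and 0.39 ± 0.09 in control cells. Its cofactor Rhbdf2 rose by 0.48 ± 0.15 in cKO and 0.50 ± 0.15 in control cells, and Rhbdf1 by 2.41 ± 0.56 in cKO and 1.79 ± 0.50 in control cells. Adam10 was called in cKO cells at 0.31 ± 0.09 and not in control cells at 0.20 ± 0.09. Of 9 RNA-binding regulators of cytokine mRNA, 5 were called higher and 1 lower in cKO cells, and 5 higher and 2 lower in control cells. Zfp36, whose protein destabilises Tnf mRNA, was at -0.69 ± 0.10 in cKO and -0.55 ± 0.10 in control cells. Zc3h12a, which encodes the endonuclease Regnase-1, rose by 0.89 ± 0.14 in cKO and 1.20 ± 0.14 in control cells. Zfp36l1 rose by 0.85 ± 0.12 in cKO and 0.69 ± 0.11 in control cells, and Rc3h1, which encodes Roquin-1, by 0.57 ± 0.09 in cKO and 0.58 ± 0.09 in control cells.

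The genes whose log2 CPM followed each ligand most closely over the 15 libraries were taken by rank from 9448 genes with a mean of at least 5 CPM. These libraries share the split by stimulation, so the values describe a common pattern and carry no test. Tnfsf8 was closest to the Th2 cytokine gene Il5 (Pearson r = 0.996), then Inhba and Sox5. Tnf was closest to Plek (r = 0.990), Lta to Prmt1 (r = 0.984), Tnfsf11 to Spry1 (r = 0.992), Tnfsf14 to Furin (r = 0.987) and Cd40lg to Tfrc (r = 0.992). The falling ligands were closest to Rtn4rl1 for Ltb (r = 0.979) and to Sh2d3c for Tnfsf13b (r = 0.988). Fasl was closest to Havcr2 (r = 0.956), which encodes TIM-3, and Tnfsf4 to Arl6ip6 (r = 0.936).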

How the data were processed

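The authors deposited an estimated count and a TPM value per gene and library, and per the labels' protocols libraries came from total RNA depleted of ribosomal RNA. Salmon 1.10.1, STAR 2.7.9a and cutadapt 3.4 are named with the GRCm39 genome per the submitters' processing notes; the role of each tool and the annotation release are not given in the sources used here. The estimated counts, as deposited, were not scaled between libraries, and 9.42% of values were not whole, so they were rounded. The deposited TPM values are the authors' own and were used for levels between genes.

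With R 4.3.3 and edgeR 4.0.16, genes were filtered (filterByExpr), scaled with TMM factors and fitted over all 15 libraries with 1 mean per group and a robust quasi-likelihood model, tested on simulated data. Tests were two-sided, with Benjamini-Hochberg adjustment over 15619 genes and calls at an adjusted p under 0.05. SEs and 95% intervals come from that model, and values ± in CPM or TPM are SDs over libraries. Whether libraries are from different mice is not stated in the labels, and the p-values speak only of the spread among these libraries, which may be technical. Library totals were 17.1 to 24.2 M estimated counts, and the SEs hold the spread between libraries as well as counting error.

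Alternatives were DESeq2 1.42.0, other size factors, no filter or 1 CPM in 3 libraries, a replicate block, no robust dispersion, a fit to the compared groups alone, limma 3.58.1 on log2 of TPM plus 0.1 or 1, each library left out, and 2 subsets of libraries chosen after seeing the data. The members and lists were chosen with earlier results of these data known. Named genes are the 10 ligands, Asb2, the ligands' receptors, the 4 genes with the smallest p in each other list, and the 3 genes most like each ligand in log2 CPM. Adgre1, the other single markers, Tradd, Ripk1 and Map3k14 were chosen after their values were seen. Promoter windows come from RefSeq (GRCm38.p6), and gene coordinates of the files' build are not used here.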

Additional observations from a re-analysis of the deposited data

Results flagged for a closer look

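In groups of 4 or 5 libraries, 88 sets of CPM values were checked for a library far from the others of its group, 20 of them for the ligands; chance alone picks out about 1 in 20. Lta was high in stimulated control replicate 1, at 33.5 CPM, with the other 4 libraries of that group at 10.9 to 17.3 CPM. Tnfsf11 was low in stimulated cKO replicate 4, at 82.4 CPM, with the other 3 at 129.7 to 136 CPM. Among the other genes checked, Fas was high in stimulated cKO replicate 3, at 10.9 CPM against 6.08 to 6.42 CPM in the rest of the group. Rela was high in stimulated control replicate 5, at 161.6 CPM against 142 to 147 CPM. Zc3h12a was low in stimulated control replicate 4, at 18.6 CPM against 22.2 to 23.6 CPM.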

How the results depend on the processing

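All 10 ligands were called after stimulation of cKO cells, with the same direction, under each of the 20 alternatives run. In control cells 202 of 210 estimates stayed called and none turned. The exceptions were Tnfsf4 without non-stimulated control replicate 2 and Fasl in 7 settings: limma on TPM plus 0.1 with and without the filter, no filter on counts, only the groups compared, numbers 1 to 3 only, and without non-stimulated control replicate 1 or 2. Of 660 genotype and interaction estimates, 57 turned sign and none was called; they ran from -0.64 to 0.86 and the smallest adjusted p was 0.746 (edgeR, DESeq2 or limma, Benjamini-Hochberg). The Tnfsf8 interaction was 0.12 on TPM plus 0.1. Whether replicate numbers pair the libraries is not settled by these values. Correlations of same-numbered deviations ran from -0.20 to 0.18. The 3 cKO numbers present in both conditions each correlated best with their own number (0.08 to 0.11), a hint from the data. In control cells number 1 did so (0.08), and numbers 2 and 3 did not. With the number as a replicate block, 10 ligands were called after stimulation in each genotype and 0 between genotypes; among all genes 8329 were called after stimulation in cKO and 7411 in control cells, against 8398 in cKO and 7897 in control cells without the block. The block within genotype could not be fitted to cKO against control.

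Counts over all genes were small and moved. In stimulated cells 1 gene was called, against 5 with DESeq2 and 0 with numbers 1 to 3 only. In non-stimulated cells 0 were called, against 4 with DESeq2, 9 with TPM plus 0.1 and no filter, 3 with TPM plus 1, and 1 each without the count filter or without non-stimulated control replicate 3. In the interaction 0 were called, against 2 with DESeq2, 4 with TPM plus 0.1 and no filter, 2 with TPM plus 1, and 1 with the block within genotype. On TPM plus 0.1 the median log2 fold change of all genes was 0.14 after stimulation of control cells, 0.15 between genotypes in non-stimulated cells and -0.21 in the interaction. The cause was not tested.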

Other observations

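Of 8 other TNF superfamily ligands, 3 passed the filter on counts: Tnfsf9, Tnfsf10 and Tnfsf15. Tnfsf15, which encodes TL1A, lies next to Tnfsf8 among the protein-coding genes of chromosome 4 in the RefSeq annotation of GRCm38.p6. Like Tnfsf8, Tnfsf15 rose. It was at 5.06, 2.91, 2.16 and 3.39 CPM in stimulated cKO libraries, against 0.764, 0.211 and 0.227 CPM in non-stimulated cKO libraries. In control cells Tnfsf15 was at 5.37, 2.68, 3.4, 2.51 and 2.54 CPM with stimulation, against 0.214, 0.103 and 0.130 CPM without. The conditions did not overlap, and the non-stimulated values rest on few reads. The log2 fold change was 3.07 ± 0.44 in cKO cells (edgeR, Benjamini-Hochberg adjusted p = 1.6e-05) and 4.43 ± 0.51 in control cells (adjusted p = 1.3e-06), and the interaction of -1.35 ± 0.73 was not called (adjusted p = 0.997).

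Tnfsf9, which encodes 4-1BB ligand, was called higher in control cells, at 0.81 ± 0.30 on the log2 scale (edgeR, Benjamini-Hochberg adjusted p = 0.030), and not in cKO cells, at 0.68 ± 0.31 (adjusted p = 0.067). The difference between genotypes for Tnfsf9 was not called. Tnfsf10, which encodes TRAIL, was not called, at -0.11 ± 0.19 in cKO and -0.07 ± 0.18 in control cells. It was at 90.2 ± 17.2 CPM in stimulated cKO and 97.6 ± 16.0 CPM in non-stimulated cKO cells, and at 88.1 ± 16.1 CPM in stimulated control and 92.5 ± 23.3 CPM in non-stimulated control cells. Eda was at 0 in every library, and Tnfsf12, Tnfsf13, Tnfsf18 and Cd70 were too scarce to test.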
